A study of Mus musculus with 8 samples.

Results

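The comparison concerns the 2 cDNA and the 2 Direct RNA libraries of undifferentiated R1 mouse embryonic stem cells (ESCs), chosen by their labels, which are 4 of the 8 libraries of the series. R1 is an established line of pluripotent cells. According to the study's methods these cells, named Undiff, were kept in serum medium with leukaemia inhibitory factor, which holds them in the stem-cell state, whereas the labels give the tissue of every library as embryoid bodies. Undiff cells received no retinoic acid (RA). The Day4 libraries, used here only for comparison, come from embryoid bodies grown without the factor and then exposed to RA for 4 days. According to the methods there were 2 biological replicates, grown separately, and the RNA was used for both kits, so the replicates of a kit are cultures of 1 cell line. Input was 500 ng of polyadenylated RNA per Direct RNA library and 50 ng per cDNA library. The question was which classes of transcripts each kit counted more often in the same stem-cell RNA.

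In the Direct RNA kit of Oxford Nanopore Technologies (ONT), an adapter is ligated to the poly(A) tail and the RNA molecule is itself drawn through a pore. In the cDNA kit the RNA is reverse-transcribed from its tail, the copies are amplified by PCR, and it is DNA that is read. In ESCs, mRNAs of the translation machinery and of energy metabolism are abundant, and a network of transcription factors around Pou5f1, Sox2 and Nanog keeps the cells pluripotent.

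Reads on genes were 348457 and 907489 in Direct RNA replicates 1 and 2, and 948657 and 2088592 in cDNA replicates 1 and 2. CPM below stands for counts per 1000000 reads on genes. The lowest level a library could resolve, set at 3 reads, was between 1.44 and 8.61 CPM. Levels are given for replicate 1 and then replicate 2. A log2 difference is that of DESeq2, positive where cDNA was higher. It is scaled so that the median of the 9437 genes with a mean normalised count of at least 5 lay at 0.023. Scaling by total reads instead moved this median by -0.82, so ratios of CPM run lower than the log2 differences by about that amount. A gene was called higher or lower with an adjusted p-value of at most 0.05 and a log2 difference of at least 1 in size.

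Markers of the label were read first. The 25 pluripotency genes summed to between 14923 and 31218 CPM in the 4 libraries, and none of them was without reads. The 7 mesoderm markers summed to between 9.49 and 13.2 CPM. Of the 12 fibroblast markers, 6 had no read in any library, Col1a2 and Col3a1 among them, and the sum lay between 29.5 and 101 CPM. Primitive endoderm markers summed to between 105 and 531 CPM with Gata6 at 0, and neural markers to between 632 and 818 CPM with Dcx at 0 and Stmn2 as the most abundant. In such bulk libraries, fewer cells of a type and less RNA per cell cannot be told apart.

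DESeq2 called 2784 of 9437 tested genes (29.5%). Of these, 1653 (17.5% of the tested genes) were higher in cDNA and 1131 (12.0%) lower. Scaled by total reads, 662 were higher and 2439 lower, so the split between directions rests on the scaling, and the classes below are read against all tested genes. Over the 4574 genes whose counts reached 10 in each of the 4 libraries, the absolute log2 difference had a median of 0.290 between the Direct RNA replicates, 0.445 between the cDNA replicates and 0.992 between the means of the kits. Kit and RNA input moved together over the libraries, as would any difference in counting setting, and cannot be told apart.

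Short transcripts were counted more in cDNA and long ones more in Direct RNA. Genes whose longest annotated transcript has up to 1000 bases took 8.34% and 9.41% of Direct RNA reads and 18.8% and 15.9% of cDNA reads. Both cDNA libraries lay above both Direct RNA libraries. Of the 479 such genes tested, 283 were higher and 16 lower in cDNA, with a median log2 difference of 1.75. That is 59.1% of them called higher and 3.34% called lower. For transcripts over 1000 and up to 2000 bases, 469 of 1682 genes were higher and 127 lower. From 2000 to 3000 bases the counts were 312 and 227 of 2050, and the median of 0.16 lay close to that of all genes. The order turned from 3000 to 5000 bases, where 370 of 3252 genes were higher and 483 lower, with a median of -0.39. Genes with transcripts over 5000 bases took 12.7% and 11.96% of Direct RNA reads and 8.72% and 9.21% of cDNA reads, and 210 of 1946 were higher and 276 lower, with a median of -0.60. With total-read scaling 143 genes of up to 1000 bases were higher and 27 lower, and 117 and 638 of those over 5000 bases. The classes of 1000 to 2000 and of 2000 to 3000 bases then turned, with 147 higher and 252 lower and with 105 and 453.

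The number of exons gave a similar order. Genes with over 20 exons took 8.97% and 8.02% of Direct RNA reads and 3.44% and 3.69% of cDNA reads, so that each cDNA library lay below both Direct RNA libraries. Of the 1147 tested, 55 were higher and 251 lower in cDNA, with a median log2 difference of -0.99. Genes with 2 to 5 exons took 32.6% and 34.8% of Direct RNA reads and 47.1% and 44.2% of cDNA reads, and 770 of 2759 were higher and 225 lower. Single-exon genes had a median of 0.61, with 134 higher and 55 lower of 504. Relative to all tested genes it was 0.58, and 0.33 without cDNA replicate 1. With total-read scaling the split turned for both of these classes, to 339 higher and 470 lower and to 49 and 110.

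**Figure D1:**
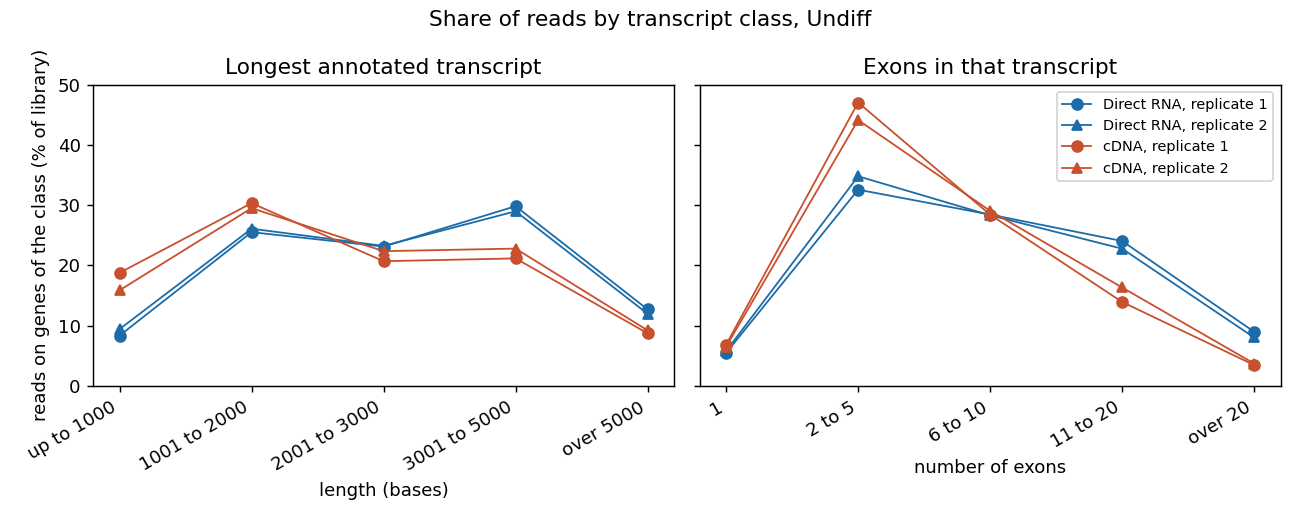
Share of each library's reads (percent, y axis) that fell on genes of each class of transcript length in bases (left) or exon number (right), one line per Undiff library. The cDNA libraries lie above the Direct RNA libraries for genes up to 1000 bases and below them for genes over 3000 bases and over 10 exons.

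Weighted by reads, the median length of the gene's longest transcript was 2673 and 2572 bases in Direct RNA and 2035 and 2159 bases in cDNA. The group means were 2622 ± 71.4 and 2097 ± 87.7 bases (SD, n = 2), and the groups did not overlap. The 2-sided exact permutation p was 0.333, the smallest that 2 against 2 libraries can give. These lengths are those of the annotation, not of the reads, and the size of the gap depends on which transcript stands for a gene. With each gene's median transcript length the means were 894 and 851 bases. With its longest coding sequence they were 1112 and 768 bases.

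GC-rich transcripts were counted more in Direct RNA. Genes with a GC content of 54% and over took 24.7% and 25.3% of Direct RNA reads and 20.2% and 20.3% of cDNA reads, and 326 of 2566 were higher and 475 lower, with a median of -0.44. Genes under 42% GC took 10.3% and 10.2% of Direct RNA reads and 11.2% and 11.5% of cDNA reads, and 214 of 1145 were higher and 73 lower, with a median of 0.30. The latter split turned with total-read scaling, to 79 higher and 197 lower. The mean GC content weighted by reads was 49.8 ± 0.081% in Direct RNA and 49.1 ± 0.041% in cDNA (SD, n = 2). Among genes that had 10 or more reads in each of the libraries, the GC medians relative to all tested genes moved from -0.47 to -0.24 at 54% and over and from 0.28 to 0.094 under 42%. Length and GC were then crossed over the genes with no exon overlap with another gene. Among transcripts of 3000 to 5000 bases, the median log2 difference was 0.20 under 42% GC (n = 276 genes) and -1.16 at 54% and over (n = 375), where 16 genes were higher and 95 lower. Among transcripts up to 1000 bases the medians lay between 1.72 (54% and over, n = 130) and 2.25 (42 to 46%, n = 23), so every GC class of short transcripts lay above the median of all genes.

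**Figure D2:**
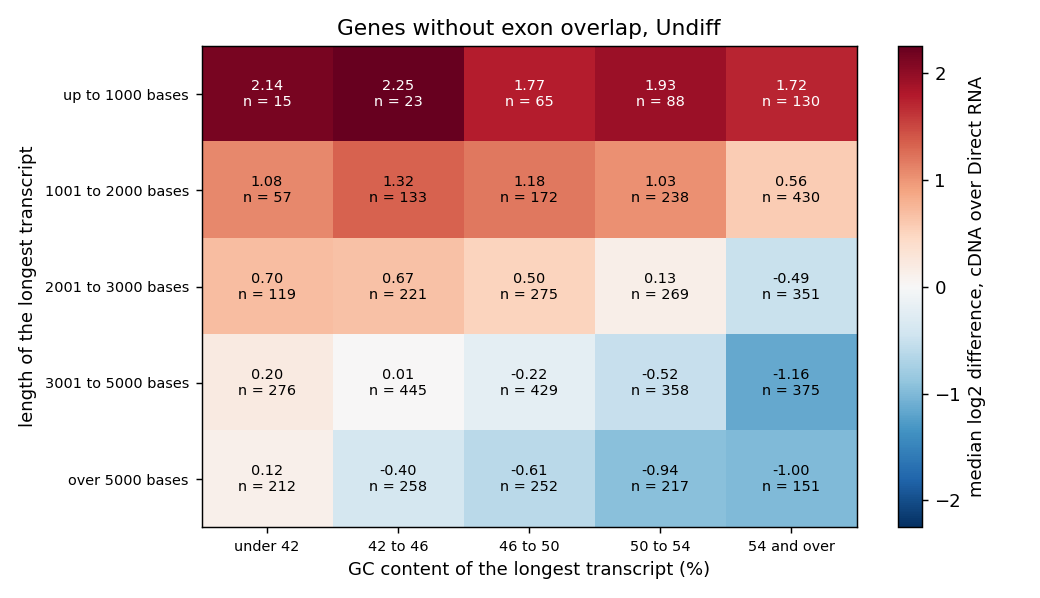
Median log2 difference (cDNA over Direct RNA, colour and upper number) of genes without exon overlap, by length of the longest transcript in bases (rows) and its GC content in percent (columns), with the number of genes in each cell. The medians fall from 2.25 among short transcripts to -1.16 among GC-rich transcripts of 3000 to 5000 bases.

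The 8 genes lowest and the 8 genes highest in cDNA were taken among called genes with a mean of at least 50 CPM and no exon overlap. To show their base composition, the first 60 coding bases are printed for the 3 most GC-rich of the lowest and the 3 least GC-rich of the highest. They are taken from GENCODE vM21 transcripts (GRCm38), 5′ to 3′, and the capitals mark the start codon. The first 3 belong to E130012A19Rik (chr11:97627389-97629702, minus strand), Rbmxl2 (chr7:107209445-107210916, plus strand) and Tcf15 (chr2:152143561-152149097, plus strand), whose whole coding sequences have 71.7%, 73.4% and 72.6% GC. The other 3 belong to Cbx3 (chr6:51470360-51483704, plus strand), Actr2 (chr11:20062304-20112913, minus strand) and Gtf2a1 (chr12:91555262-91590487, minus strand), with 43.2%, 45.2% and 48.1%. The first bases do not always follow the whole, since those of Actr2 have 58.3% GC.
E130012A19Rik: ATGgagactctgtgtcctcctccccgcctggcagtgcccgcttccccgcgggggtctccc
Rbmxl2: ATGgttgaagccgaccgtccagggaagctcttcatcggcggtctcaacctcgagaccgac
Tcf15: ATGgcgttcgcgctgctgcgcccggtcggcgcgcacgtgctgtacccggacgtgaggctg
Cbx3: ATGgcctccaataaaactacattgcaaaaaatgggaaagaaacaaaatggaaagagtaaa
Actr2: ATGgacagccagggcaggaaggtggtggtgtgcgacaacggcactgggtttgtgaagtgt
Gtf2a1: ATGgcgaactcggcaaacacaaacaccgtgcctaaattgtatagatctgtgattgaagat

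Among genes that were lower in cDNA, Klf2, a pluripotency transcription factor, stood at 804 and 780.2 CPM in Direct RNA and 14.8 and 16.3 CPM in cDNA (log2 difference -4.71 ± 0.41 (SE), adjusted p = 9.75e-28). Odc1, the first enzyme of polyamine synthesis, stood at 1283 and 1495 CPM in Direct RNA and 13.7 and 40.7 CPM in cDNA (log2 difference -4.68 ± 0.42 (SE), adjusted p = 1.85e-25). E130012A19Rik, named Epop in GENCODE and known as a partner of Polycomb complexes in ESCs, stood at 743 and 644 CPM in Direct RNA and 14.8 and 17.2 CPM in cDNA (log2 difference -4.47 ± 0.41 (SE), adjusted p = 1.38e-24). In all 3 the groups were far apart and the replicates of a kit differed far less than the kits. Eif3f, a subunit of the translation initiation factor eIF3, stood at 717 and 812 CPM in Direct RNA and 18.97 and 22.02 CPM in cDNA (log2 difference -4.27 ± 0.40 (SE), adjusted p = 9.37e-24). Rbmxl2, an RNA-binding protein gene with a single exon, stood at 198 and 327 CPM in Direct RNA and 2.11 and 4.79 CPM in cDNA (log2 difference -5.02 ± 0.60 (SE), adjusted p = 1.14e-14). Tcf15, a bHLH transcription factor, stood at 143 and 131 CPM in Direct RNA and 3.16 and 3.35 CPM in cDNA (log2 difference -4.24 ± 0.64 (SE), adjusted p = 2.59e-09). Each of these, too, had both cDNA libraries below both Direct RNA libraries. Zmynd19 stood at 195 and 171 CPM in Direct RNA and 3.16 and 5.75 CPM in cDNA (log2 difference -4.20 ± 0.58 (SE), adjusted p = 5.61e-11). Ssbp4, of a family of single-stranded DNA-binding proteins, stood at 129 and 88.2 CPM in Direct RNA and 0 and 3.83 CPM in cDNA (log2 difference -4.27 ± 0.73 (SE), adjusted p = 2.32e-07), and its call was lost without Direct RNA replicate 1 or 2 (adjusted p = 0.53 and 0.47).

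Among genes that were higher in cDNA, Actr2, a subunit of the Arp2/3 complex that nucleates actin, stood at 187 and 315 CPM in Direct RNA and 7325 and 4539 CPM in cDNA (log2 difference 5.27 ± 0.40 (SE), adjusted p = 1.34e-35). Ptges3, the HSP90 co-chaperone p23, stood at 330 and 337 CPM in Direct RNA and 4862 and 5641 CPM in cDNA (log2 difference 4.74 ± 0.32 (SE), adjusted p = 5.79e-47). Gtf2a1, the large subunit of the general transcription factor TFIIA, stood at 51.7 and 33.1 CPM in Direct RNA and 1176 and 1091 CPM in cDNA (log2 difference 5.52 ± 0.40 (SE), adjusted p = 1.57e-40). These 3 were abundant in both cDNA replicates. Cbx3, which encodes the heterochromatin protein HP1 gamma, had the largest difference of these genes, at 11.5 and 20.9 CPM in Direct RNA and 2758 and 824 CPM in cDNA (log2 difference 6.48 ± 0.90 (SE), adjusted p = 4.60e-11), and its cDNA replicates differed more from each other. Gigyf1 stood at 8.61 and 17.6 CPM in Direct RNA and 1040.4 and 514 CPM in cDNA (log2 difference 6.33 ± 0.53 (SE), adjusted p = 1.14e-29). Abcg1, a cholesterol transporter, stood at 8.61 and 5.51 CPM in Direct RNA and 452 and 189 CPM in cDNA (log2 difference 6.03 ± 0.63 (SE), adjusted p = 5.16e-19). In these 3, cDNA replicate 1 was the higher one. Sec61g, a subunit of the channel that moves proteins into the endoplasmic reticulum, stood at 2.87 and 6.61 CPM in Direct RNA and 189.7 and 74.7 CPM in cDNA (log2 difference 5.03 ± 0.70 (SE), adjusted p = 6.12e-11). Itpripl1 stood at 2.87 and 3.31 CPM in Direct RNA and 129.7 and 91.4 CPM in cDNA (log2 difference 5.37 ± 0.73 (SE), adjusted p = 2.31e-11). Its Direct RNA counts were 1 and 3 reads. Those of Sec61g were 1 and 6, of Abcg1 3 and 5, and of Gigyf1 3 and 16. With counts near the floor of 3 reads, the size of these differences is uncertain. Of these 8, Gigyf1, Abcg1 and Gtf2a1 have longest transcripts of 5440, 5832 and 6064 bases, so the most extreme genes did not all follow the length classes.

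**Figure D3:**
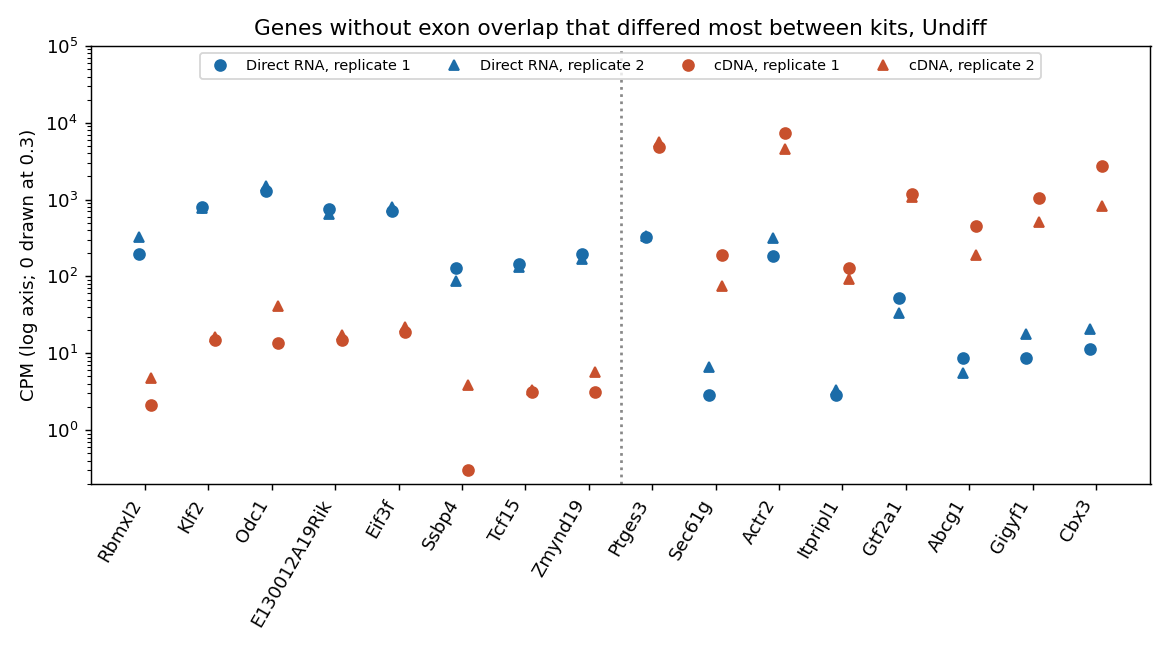
CPM (log axis) in the 4 Undiff libraries for the 8 genes without exon overlap that were lowest in cDNA (left of the dotted line) and the 8 that were highest (right). Circles are replicate 1 and triangles replicate 2, and in every gene shown the kits do not overlap.

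Most tested genes of ribosomal proteins and of the respiratory chain, whose mRNAs are mostly short, were higher in cDNA. Of 79 cytosolic ribosomal protein genes tested, 52 were higher and 0 lower in cDNA, with a median log2 difference of 1.52. Of 77 mitochondrial ribosomal protein genes, 52 were higher and 3 lower in cDNA, with a median log2 difference of 1.35. Of 83 genes of the respiratory chain and ATP synthase, 58 were higher and 1 lower in cDNA, with a median log2 difference of 1.74. Of 46 proteasome subunit genes, 24 were higher and 5 lower in cDNA, with a median log2 difference of 1.25. All tested genes had a median of 0.023. With total-read scaling the counts higher and lower were 27 and 2, 23 and 6, 33 and 5, and 10 and 7, and all 4 medians stayed above 0, between 0.42 and 0.91.

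Within these lists, members with shorter coding sequences had larger differences. Ribosomal protein genes up to the median coding length of 468 bases had a median of 1.97 (n = 40) and longer ones 1.23 (n = 38). Across the genes of a list, Spearman's rho of coding length and log2 difference was -0.36 for the cytosolic and -0.43 for the mitochondrial ribosomal proteins, -0.52 for the respiratory chain (n = 83) and -0.54 for the proteasome (n = 46). These coefficients are descriptions across genes of the same 4 libraries. The ribosomal protein genes also have many processed copies in the genome, so their counts are uncertain where reads can align to a copy. The whole coding sequence of Rpl39 without its stop codon, 153 bases (gene at chrX:37082520-37085402, minus strand), and the first 60 of the 210 coding bases of Rpl38 (chr11:114668524-114672331, plus strand) show how short these messages are, with the start codon in capitals.
Rpl39: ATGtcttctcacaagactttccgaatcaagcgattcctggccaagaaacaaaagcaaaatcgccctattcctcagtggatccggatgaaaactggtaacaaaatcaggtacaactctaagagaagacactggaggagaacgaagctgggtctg
Rpl38: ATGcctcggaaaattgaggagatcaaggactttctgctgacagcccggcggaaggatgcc

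Rpl38, which had the largest difference of the ribosomal list, stood at 71.7 and 50.7 CPM in Direct RNA and 1314 and 510.4 CPM in cDNA (log2 difference 4.65 ± 0.48 (SE), adjusted p = 1.72e-19). Rpl39, chosen for its length after its values were seen, stood at 103 and 88.2 CPM in Direct RNA and 419.5 and 420.4 CPM in cDNA (log2 difference 2.93 ± 0.37 (SE), adjusted p = 8.50e-13). Rpl8, the most abundant member and the lowest of those called, stood at 5369 and 5676 CPM in Direct RNA and 6353 and 6051 CPM in cDNA (log2 difference 1.01 ± 0.31 (SE), adjusted p = 0.0105). Its CPM values were nearly alike, and its call was lost with edgeR (log2 difference 0.997), with total-read scaling (0.17), and without Direct RNA replicate 1, Direct RNA replicate 2 or cDNA replicate 1 (adjusted p = 0.47, 0.23 and 0.0266, the last with a log2 difference under 1). Cox7c, a small subunit of cytochrome c oxidase, stood at 31.6 and 14.3 CPM in Direct RNA and 441 and 247 CPM in cDNA (log2 difference 4.69 ± 0.51 (SE), adjusted p = 1.84e-17). Cox4i1, of the same enzyme and the most abundant of its list, overlaps Emc8 on the opposite strand and stood at 1659 and 1829 CPM in Direct RNA and 4208 and 3793 CPM in cDNA (log2 difference 2.02 ± 0.32 (SE), adjusted p = 2.10e-08). Mrpl15 and Mrps36 had log2 differences of 1.71 and 3.22, and Psmb6, a catalytic subunit of the proteasome, 2.30. The call of Mrpl15 was lost with total-read scaling (log2 difference 0.88).

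A few members went the other way. Mrpl24, which overlaps Rrnad1 on the opposite strand, stood at 269.8 and 250.1 CPM in Direct RNA and 2.11 and 8.14 CPM in cDNA (log2 difference -4.46 ± 0.55 (SE), adjusted p = 1.29e-13). Psme4, the long proteasome activator PA200 with 47 exons, overlaps Erlec1 on the opposite strand. It stood at 249.7 and 183 CPM in Direct RNA and 27.4 and 18.7 CPM in cDNA (log2 difference -2.29 ± 0.48 (SE), adjusted p = 4.26e-05). Its call was lost without Direct RNA replicate 1 (log2 difference -2.08). Psme2, which had the highest called log2 difference of the proteasome list (3.48), was at most 26.4 CPM in any library, and its call was lost without Direct RNA replicate 2 (adjusted p = 0.28), Direct RNA replicate 1 (0.0542) or cDNA replicate 1 (0.24).

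Translation factors were split. Of 57 tested, 17 were higher and 10 lower in cDNA, with a median log2 difference of 0.37, which fell to -0.46 with total-read scaling. Eef1a1, the elongation factor that brings tRNAs to the ribosome, was the most abundant at 17824 and 15684 CPM in Direct RNA and 4523 and 6088 CPM in cDNA. Its log2 difference of -0.81 ± 0.30 (SE) stayed under the fold threshold (adjusted p = 0.0454), and with total-read scaling it was -1.64. Eif1, a short factor that acts in start-codon choice, stood at 1423 and 1349 CPM in Direct RNA and 4482 and 4414 CPM in cDNA (log2 difference 2.50 ± 0.31 (SE), adjusted p = 1.73e-13). Eif3f, above, was the lowest.

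Several other lists lay below the median gene. Of 62 chromatin remodellers and histone modifiers, 8 were higher and 17 lower in cDNA, with a median log2 difference of -0.57. These are 12.9% and 27.4%, beside 17.5% and 12.0% of all tested genes. With total-read scaling 3 were higher and 26 lower. Ep300, a histone acetyltransferase, stood at 88.96 and 58.4 CPM in Direct RNA and 4.22 and 4.31 CPM in cDNA (log2 difference -2.98 ± 0.70 (SE), adjusted p = 3.31e-04). That call was lost without Direct RNA replicate 1 or 2 (adjusted p = 0.13 and 0.0708). Against this direction, Gatad2a, a subunit of the NuRD complex, stood at 247 and 187 CPM in Direct RNA and 1633 and 1049 CPM in cDNA (log2 difference 3.44 ± 0.38 (SE), adjusted p = 6.49e-17), and Tet2, which oxidises methylated cytosine and overlaps the unlisted Gm42567 on the opposite strand, at 11.5 and 22.04 CPM in Direct RNA and 305 and 166 CPM in cDNA (log2 difference 4.36 ± 0.54 (SE), adjusted p = 1.00e-13). Relative to all tested genes the list's median was -0.59, and -0.33 without cDNA replicate 1. Among the 30 members with no exon overlap, 7 were higher and 7 lower, with a median of -0.025.

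Of 30 SR proteins and hnRNPs, which bind pre-mRNA and act in splicing, 2 were higher and 10 lower in cDNA (6.67% and 33.3%), with a median log2 difference of -0.54. With total-read scaling 0 were higher and 15 lower. Hnrnpab, which overlaps Phykpl on the opposite strand, stood at 2086 and 1957 CPM in Direct RNA and 122 and 120.2 CPM in cDNA (log2 difference -3.16 ± 0.33 (SE), adjusted p = 6.87e-19). Srsf4, which overlaps Gm12992, stood at 83.2 and 93.7 CPM in Direct RNA and 0 and 0.479 CPM in cDNA (log2 difference -5.73 ± 0.94 (SE), adjusted p = 4.75e-08), and Hnrnpk, which overlaps Rmi1, at 606 and 534 CPM in Direct RNA and 885 and 1066 CPM in cDNA (log2 difference 1.60 ± 0.32 (SE), adjusted p = 1.53e-05). The call of Hnrnpk was lost with total-read scaling. The 14 members without exon overlap had 0 higher and 3 lower, with a median of 0.23 beside 0.17 over all tested genes without overlap. Zfp-numbered zinc fingers (12 higher and 16 lower of 211, median -0.30) and solute carriers (10 and 13 of 140, median -0.35) were called at 5.69% and 7.58% and at 7.14% and 9.29%, beside 17.5% and 12.0% of all tested genes. With total-read scaling 3 zinc fingers were higher and 46 lower, and 2 and 39 solute carriers. Differences between these shares were not tested. Zfp593, which overlaps E130218I03Rik, was the lowest zinc finger at 77.5 and 77.1 CPM in Direct RNA and 0 and 0.479 CPM in cDNA (log2 difference -5.54 ± 0.95 (SE), adjusted p = 2.39e-07), and Zfp367, which overlaps the unlisted Gm47513, the highest at 5.74 and 15.4 CPM in Direct RNA and 95.9 and 76.6 CPM in cDNA (log2 difference 3.48 ± 0.61 (SE), adjusted p = 5.15e-07). Slc25a5, the abundant mitochondrial ADP/ATP carrier, stood at 1722 and 2129 CPM in Direct RNA and 2150.4 and 2980 CPM in cDNA (log2 difference 1.22 ± 0.33 (SE), adjusted p = 0.00200), and its call was lost with total-read scaling and without Direct RNA replicate 1 or 2 (adjusted p = 0.35 and 0.0632). Slc15a1, a peptide transporter, was higher (3.90) and Slc44a1, a choline transporter that overlaps the unlisted 1700060J05Rik, lower (-4.28), but the former call was lost without Direct RNA replicate 2 or cDNA replicate 1 (adjusted p = 0.0988 and 0.84) and the latter without Direct RNA replicate 2 or cDNA replicate 2 (0.29 and 0.0526).

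Glycolysis and chaperone genes were called at shares close to those of all tested genes, 16.7% higher and 11.1% lower and 18.0% and 11.5%. Of 18 glycolysis genes, 3 were higher and 2 lower, with a median of 0.47. Of 50 genes of DNA replication and mitosis, 12 were higher and 6 lower, with a median of 0.16, and of 61 chaperones 11 and 7, with a median of 0.082. With total-read scaling these 3 medians were -0.31, -0.63 and -0.73. Single genes within a list could still differ widely. Hk2, the hexokinase that commits glucose to glycolysis in growing cells, stood at 126 and 145 CPM in Direct RNA and 1001.4 and 985 CPM in cDNA (log2 difference 3.63 ± 0.35 (SE), adjusted p = 2.88e-22), and Ldha, lactate dehydrogenase A, at 1848 and 2602 CPM in Direct RNA and 4674 and 4488 CPM in cDNA (log2 difference 1.85 ± 0.34 (SE), adjusted p = 1.55e-06). Gmnn, an inhibitor of DNA re-replication, stood at 187 and 201 CPM in Direct RNA and 841 and 617 CPM in cDNA (log2 difference 2.71 ± 0.37 (SE), adjusted p = 4.03e-11). Cdc20, an activator of the anaphase-promoting complex whose gene overlaps Elovl1, stood at 448 and 441 CPM in Direct RNA and 20.03 and 21.1 CPM in cDNA (log2 difference -3.50 ± 0.42 (SE), adjusted p = 1.51e-14). Hsp90ab1, the most abundant chaperone, was at -0.33 with total-read scaling and did not pass (6649 and 6076 CPM in Direct RNA and 4089 and 6029.9 CPM in cDNA, log2 difference 0.50 ± 0.31 (SE), adjusted p = 0.34). Hspa1b, a stress-induced HSP70, stood at 43.05 and 16.5 CPM in Direct RNA with no read in cDNA, at least 24.2-fold lower against 3 reads over the group. Its call is uncertain, since it has a near-identical copy, Hspa1a, and it was lost without Direct RNA replicate 1 or cDNA replicate 2 (adjusted p = 0.21 and 0.0798).

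**Figure D4:**
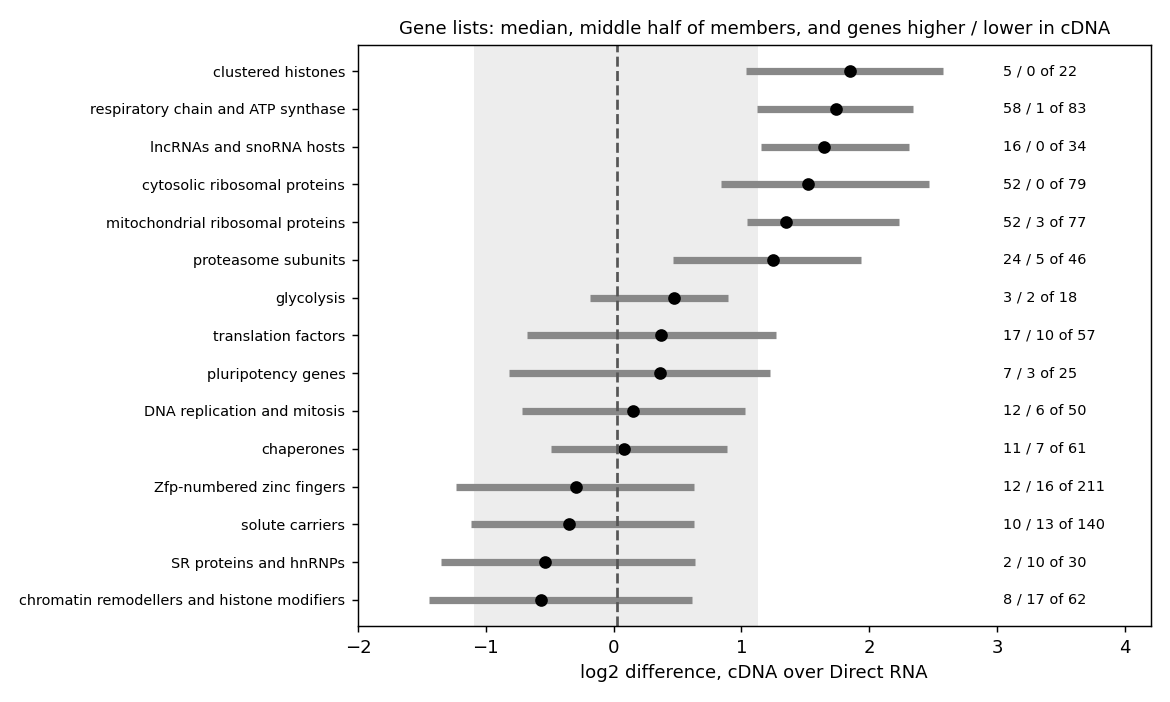
Log2 difference (cDNA over Direct RNA) of gene lists with at least 15 tested members in Undiff. Dots are medians, bars the interquartile range of the members, the dashed line and grey band the same for all tested genes, and the numbers at the right the members called higher and lower in cDNA. Ribosomal, respiratory, proteasome, histone and long non-coding lists lie above the median of 0.023.

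Most of the long non-coding RNAs called were higher in cDNA. Of 133 long non-coding RNAs by annotation, 40 were higher and 1 lower in cDNA, with a median log2 difference of 1.41, and together they took 0.495% and 0.570% of Direct RNA reads and 1.06% and 0.809% of cDNA reads. Only 35 of the 133 had 10 or more reads in each of the 4 libraries, and over those the median relative to all tested genes was 0.79 in place of 1.38. Of 34 named lncRNAs and hosts of snoRNAs, 16 were higher and 0 lower in cDNA, with a median log2 difference of 1.64. Only 13 of these 34 had 10 or more reads in each library. With total-read scaling 16 of the former were higher and 5 lower, and 11 and 1 of the latter. Malat1, a nuclear long non-coding RNA with 6983 bases and a single exon, stood at 14.3 and 12.1 CPM in Direct RNA and 328 and 310.3 CPM in cDNA (log2 difference 5.24 ± 0.50 (SE), adjusted p = 8.12e-23). Snhg3, a snoRNA host, stood at 189 and 275 CPM in Direct RNA and 889.7 and 512 CPM in cDNA (log2 difference 2.38 ± 0.42 (SE), adjusted p = 4.05e-07). Malat1 and Snhg3 overlap the unlisted genes Gm37376 and Gm17300 on the opposite strand. Snhg6, which overlaps Mcmdc2 on the opposite strand, was the weakest call of the list, at 83.2 and 89.3 CPM in Direct RNA and 111 and 114 CPM in cDNA (log2 difference 1.18 ± 0.44 (SE), adjusted p = 0.0425). It was lost without any one of the 4 libraries (adjusted p between 0.19 and 0.55).

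Of 33 pseudogenes tested, 14 were higher (42.4%, beside 17.5% of all tested genes) and 0 lower, with a median of 1.92. Only 10 of the 33 had 10 or more reads in each library. Reads of pseudogenes are uncertain where a copy is nearly identical to its parent gene. Of the 1307 listed microRNA and small RNA loci only 7 had enough reads, 3 higher and 1 lower. These kits start from polyadenylated RNA, and such a locus collects reads of any longer transcript over it. Mir682 stood at 2015 and 2307 CPM in Direct RNA and 4232 and 3906 CPM in cDNA (log2 difference 1.74 ± 0.32 (SE), adjusted p = 2.26e-06), a call lost with total-read scaling. Mir6516 stood at 37.3 and 83.7 CPM in Direct RNA and 4.22 and 0.958 CPM in cDNA (log2 difference -3.41 ± 0.83 (SE), adjusted p = 5.69e-04), and its call was lost without Direct RNA replicate 2 or cDNA replicate 2 (adjusted p = 0.49 and 0.12). Clustered histone genes, whose mRNAs mostly lack a poly(A) tail, were near the limit of detection. Of 22 tested of 68, 5 were higher and 0 lower. Their median relative to all tested genes was 1.83, but 1.13 without Direct RNA replicate 2 and 0.47 without cDNA replicate 1. Hist1h2bj, the most abundant, stood at 14.3 and 5.51 CPM in Direct RNA and 99.1 and 10.1 CPM in cDNA and did not pass (adjusted p = 0.12). With edgeR its adjusted p was 3.07e-08, and DESeq2 called it with the replicate number as a block (adjusted p = 0.00266). Its cDNA replicates were far apart. Hist1h4c had the largest called difference of the list at 2.87 and 0 CPM in Direct RNA and 30.6 and 3.83 CPM in cDNA and Hist1h2bc the smallest at 11.5 and 22.04 CPM in Direct RNA and 26.4 and 54.1 CPM in cDNA. Both calls were weak. That of Hist1h4c (adjusted p = 0.0112) was lost without Direct RNA replicate 1, Direct RNA replicate 2 or cDNA replicate 1 (adjusted p = 0.0587, 0.44 and 0.92). That of Hist1h2bc (adjusted p = 0.0376) was lost without any one library (between 0.0639 and 0.63), and with total-read scaling no histone gene was called.

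The pluripotency genes did not move as a group. Of 25, all tested, 7 were higher and 3 lower in cDNA, with a median log2 difference of 0.37, and the quartiles of the members lay at -0.82 and 1.22. With total-read scaling the median was -0.45, with 4 higher and 8 lower, so the direction of the list rests on the scaling. The genes higher in cDNA were Sall4, Lin28a, Dppa5a, Dppa3, Dppa4, Dppa2 and Tcl1, and those lower were Klf2, Esrrb and Sox2. Dppa5a, a small KH-domain protein of pluripotent cells, was the most abundant, at 4985 and 6849.7 CPM in Direct RNA and 18125 and 20187 CPM in cDNA (log2 difference 2.49 ± 0.33 (SE), adjusted p = 4.58e-12). Dppa3 (Stella) stood at 66.01 and 96.97 CPM in Direct RNA and 275 and 256 CPM in cDNA (log2 difference 2.45 ± 0.42 (SE), adjusted p = 1.56e-07). Sall4, a zinc finger transcription factor, stood at 141 and 163 CPM in Direct RNA and 1885 and 2149 CPM in cDNA (log2 difference 4.48 ± 0.34 (SE), adjusted p = 6.12e-37), and Lin28a, which blocks the maturation of let-7, at 123 and 245 CPM in Direct RNA and 1542 and 1952 CPM in cDNA (log2 difference 3.95 ± 0.39 (SE), adjusted p = 1.03e-21). The longest transcripts of these 2 have 5073 and 3505 bases, and their exons overlap Gm14261 and Gm13061, opposite-strand genes that the count tables do not list.

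Sox2, a core factor with a single exon, stood at 534 and 601 CPM in Direct RNA and 123 and 146 CPM in cDNA (log2 difference -1.21 ± 0.36 (SE), adjusted p = 0.00649). Its call was lost without any one library (adjusted p between 0.0545 and 0.44). Esrrb, an orphan nuclear receptor, stood at 324 and 390.1 CPM in Direct RNA and 43.2 and 87.1 CPM in cDNA (log2 difference -1.58 ± 0.43 (SE), adjusted p = 0.00213), lost without Direct RNA replicate 1 or 2 or cDNA replicate 1 (adjusted p = 0.0614, 0.34 and 0.0768). Pou5f1 (Oct4) stood at 2026 and 2184 CPM in Direct RNA and 706 and 909 CPM in cDNA and Nanog at 453 and 472 CPM in Direct RNA and 104 and 221 CPM in cDNA. Neither passed, with log2 differences of -0.54 ± 0.32 (SE) and -0.67 ± 0.40 (adjusted p = 0.29 and 0.30). With total-read scaling both were called lower, at -1.36 and -1.46. Exons of Pou5f1 overlap the unlisted Gm19553 on the opposite strand, and those of Tbx3 overlap Tbx3os1. Klf4 had -1.38 ± 0.58 (adjusted p = 0.0818), and was called lower by edgeR and with total-read scaling. The other 12 members that did not pass were Fbxo15, Fgf4, Gdf3, Klf5, L1td1, Nr0b1, Prdm14, Tbx3, Tdgf1, Tfcp2l1, Utf1 and Zfp42, with log2 differences between -0.85 and 0.87. The calls of Dppa4, Dppa2 and Tcl1 were lost with total-read scaling (log2 differences 0.85, 0.45 and 0.44). Of the weaker calls, Dppa4 was lost without Direct RNA replicate 1 (adjusted p = 0.10). Dppa2 was lost without Direct RNA replicate 1 or 2 or cDNA replicate 2 (0.24, 0.44 and 0.41), and Tcl1 without the same 3 (0.53, 0.32 and 0.51).

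Genes that overlap a gene on the opposite strand were read as a separate class. The overlap is of exons or, between listed genes, of gene spans that overlap end to end. These kinds were not separated, and neither were they for the named partners. The authors counted Direct RNA reads by strand, and the counting of cDNA reads was not stated to use it. Without strand, reads of such a pair cannot be told apart. Of 2375 genes with such an overlap with a listed gene on the other strand, 339 were higher and 422 lower in cDNA, with a median log2 difference of -0.21. Of 71 genes whose exons run against an unlisted pseudogene, 16 were higher and 6 lower (22.5% and 8.45%, beside 17.5% and 12.0% of all tested genes), which turned to 6 and 10 with total-read scaling. Of 5559 genes without any overlap, 1043 were higher and 548 lower in cDNA, with a median log2 difference of 0.17. Without overlap the split turned with total-read scaling, to 428 higher and 1302 lower, while the overlapping genes had 119 higher and 766 lower. The difference between these classes was largest among strong calls. Of the 251 genes lower in cDNA by over 3 on the log2 scale, 145 (57.8%) had such an overlap, against 16.5% of the 237 genes higher by over 3 and 25.2% of all tested genes. Within transcripts of up to 1000 bases, 12.5% of 96 overlapping genes and 0.935% of 321 genes without overlap were lower. Among those of 3000 to 5000 bases these shares were 21.3% of 867 and 12.7% of 1883.

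Beside this, the counter of reads that overlapped more than 1 gene and were set aside held 2.16% and 2.22% of the reads on genes or on that counter in Direct RNA, and 7.79% and 7.65% in cDNA. Its part in the differences of single genes was not tested. A total of 17 genes had at least 20 reads over the Direct RNA libraries and none in cDNA, and 14 of these overlap a listed gene on the opposite strand. Of the 24 genes with at least 20 reads in cDNA and none in Direct RNA, 4 do, and 14 have no overlap. Among all tested genes, 25.2% overlap a listed gene in this way. The cut of 20 is on raw reads and the cDNA libraries were deeper, so the counts of 17 and 24 are not comparable.

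The 5 lowest genes of this class were 1110008F13Rik, Taf10, Lrrc47, Carm1 and Fgd1, whose partners on the opposite strand are Sla2, Ilk, Smim1, Yipf2 and Tsr2. 1110008F13Rik stood at 253 and 295 CPM in Direct RNA and had no read in cDNA, which makes it at least 287-fold lower there against a floor of 3 reads over both cDNA libraries. Taf10, a subunit of TFIID and SAGA, stood at 241 and 264 CPM in Direct RNA and 1.05 and 0 CPM in cDNA (log2 difference -7.12 ± 0.85 (SE), adjusted p = 1.09e-14). Carm1, an arginine methyltransferase, stood at 166 and 134 CPM in Direct RNA and 0 and 0.479 CPM in cDNA (log2 difference -6.46 ± 0.89 (SE), adjusted p = 4.81e-11). Fgd1, an exchange factor for Cdc42, stood at 94.7 and 183 CPM in Direct RNA and 0 and 0.479 CPM in cDNA (log2 difference -6.34 ± 0.91 (SE), adjusted p = 2.40e-10). All of them were near or at 0 in both cDNA libraries. Lrrc47 stood at 132 and 129 CPM in Direct RNA with no read in cDNA, at least 131-fold lower. None of the 5 partners was called higher in cDNA. Sla2 had no read in any library. Ilk and Tsr2 were themselves lower in cDNA, Tsr2 with a log2 difference of -3.26 ± 0.83 (SE) (adjusted p = 0.00100). Ilk, the integrin-linked kinase, stood at 71.7 and 62.8 CPM in Direct RNA and 0 and 1.92 CPM in cDNA (log2 difference -4.32 ± 0.85 (SE), adjusted p = 9.22e-06).

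The 5 highest genes of the class were Micu3, Zscan26, Lrrc8a, Nup98 and Rdh13, with log2 differences between 4.29 and 5.55. Nup98, a nuclear pore protein, was the most abundant, at 48.8 and 78.2 CPM in Direct RNA and 1087 and 628 CPM in cDNA (log2 difference 4.44 ± 0.44 (SE), adjusted p = 2.03e-21). Lrrc8a, a subunit of volume-regulated anion channels, stood at 11.5 and 5.51 CPM in Direct RNA and 164 and 100.1 CPM in cDNA (log2 difference 4.64 ± 0.63 (SE), adjusted p = 1.82e-11). Micu3, a regulator of mitochondrial calcium uptake, stood at 2.87 and 4.41 CPM in Direct RNA and 245 and 64.6 CPM in cDNA, and Zscan26 at 5.74 and 9.92 CPM in Direct RNA and 370 and 121 CPM in cDNA, with cDNA replicate 1 the higher one in both. Direct RNA held 1 and 4 reads of Micu3 and 2 and 9 of Zscan26, so the size of these differences is uncertain.

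The largest difference of all fell on a locus with a processed copy of a ribosomal protein gene. Gm5148 (chr3:37714190-37724490, minus strand), singled out after its values were seen, had no read in either Direct RNA library and 4974 and 8409 reads in cDNA, which is 5243 and 4026 CPM. Against a floor of 3 reads over both Direct RNA libraries it was at least 1845-fold higher in cDNA. It had no read in the Direct RNA Day4 libraries either. Rps23-ps1, a processed pseudogene that is not among the listed genes, lies on the plus strand at chr3:37714740-37715164, and 398 of its 425 bases run antisense within an exon of Gm5148. It is identical to 425 of 425 compared bases of the coding sequence of Rps23 (chr13:90922958-90924950, plus strand), a protein of the small ribosomal subunit. The first 60 of these bases, shared by gene and copy, are printed with the start codon in capitals.
Rps23: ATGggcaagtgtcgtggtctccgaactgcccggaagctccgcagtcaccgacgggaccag
Rps23 itself stood at 60.3 and 96.97 CPM in Direct RNA and 363 and 299 CPM in cDNA (log2 difference 2.80 ± 0.42 (SE), adjusted p = 1.81e-09), far fewer reads in cDNA than at Gm5148. The counts alone do not show from which of these loci the reads came.

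Some of these class differences were of like size after differentiation and others were not. In Day4, DESeq2 called 3320 of 10381 genes (32.0%). Relative to the median gene of each state, genes up to 1000 bases had a median of 1.73 in Undiff and 1.46 in Day4, and genes over 20 exons -1.02 and -0.94. Genes with a GC content of 54% and over had -0.47 and -0.68. Respiratory chain genes had 1.72 and 1.70, while cytosolic ribosomal protein genes had 1.50 and 0.98. SR proteins and hnRNPs had -0.56 and -0.14, with 6 higher and 6 lower of 30 in Day4. Clustered histones had 1.83 and 0.094, with 1 higher and 1 lower of 5 tested in Day4. These differences between states were not tested. Of 2653 genes called in Undiff and tested in Day4, 2077 (78.3%) were called there in the same direction and none in the opposite one. Of 2932 genes called in Day4 and tested in Undiff, 70.8% were so in Undiff. Across the 8524 genes tested in both, Spearman's rho of the log2 differences was 0.922, as a description. The 2 states share no library, but they share kits, gene models and cell line.

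**Figure D5:**
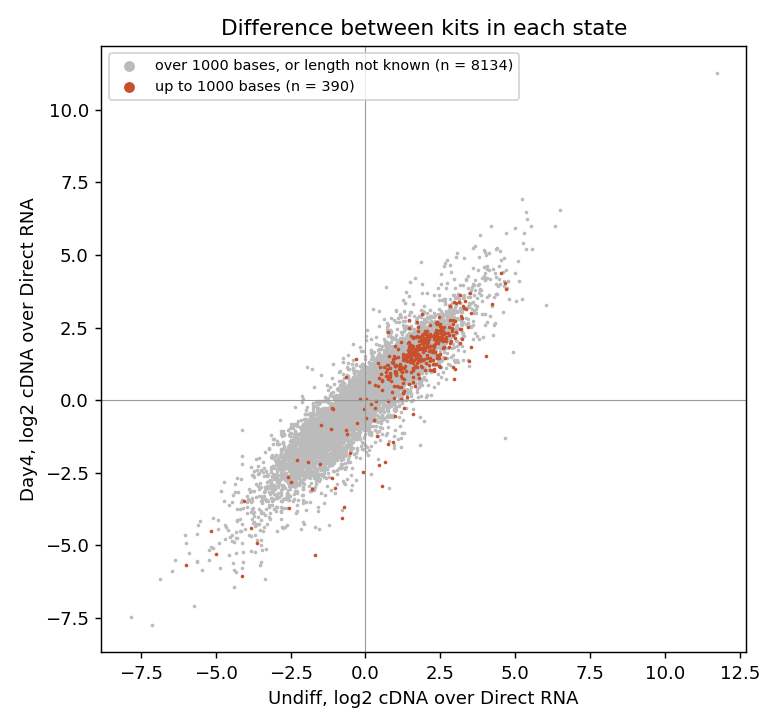
Log2 difference between kits (cDNA over Direct RNA) in Undiff (x axis) and Day4 (y axis) for the 8524 genes tested in both states, with the 390 genes of up to 1000 bases in red. Points lie along the diagonal, and most genes of up to 1000 bases are above 0 in both states.

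The test of whether the kit difference itself changed between states called 2 of 17267 genes with DESeq2, Clmp and Plvap, while 161 had an unadjusted p of at most 0.05 (0.932% of the genes). edgeR called 14. Clmp, a cell adhesion molecule, was counted 1 time per Undiff library by Direct RNA, and 41 and 97 times by cDNA (log2 difference 4.67 ± 0.88 (SE), adjusted p = 3.07e-06).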

How the data were processed

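Nanopore libraries of R1 mouse ESC RNA were made by the study with the cDNA-PCR and the Direct RNA kit, 4 of Undiff and 4 of Day4. According to the authors' methods and processing notes, reads were aligned to mm10 with minimap2 and whole reads per gene were counted with HTSeq on an mm10 annotation taken from iGenomes UCSC. The deposited values are these raw counts, which the authors had not normalised. Direct RNA counting used strand, and the setting for cDNA was not stated. The counters that name no gene were dropped. They include the ambiguous reads, 2.16% to 7.79% of assigned or ambiguous reads in Undiff.

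DESeq2 1.42.0 (R 4.3.3, Wald test with the prior on fold changes, median-of-ratios size factors, Benjamini-Hochberg adjustment, Cook cutoff and independent filtering off) compared the kits over the 4 Undiff libraries. Genes with a mean normalised count of at least 5 count as tested, and calls need an adjusted p of at most 0.05 and a log2 difference of at least 1 in size. Each leave-one-out fit has a kit with 1 library, which is assumed to vary like the other kit. edgeR 4.0.16 served as an alternative, and the fits were tested on simulated data. Interaction tests used all 8 libraries. Transcript length, exon number, GC content, type and exon overlap come from GENCODE vM21 (GRCm38), in which 24022 of 24421 listed genes were found by symbol or synonym (98.4%). Listed genes on opposite strands whose RefSeq spans overlap end to end, neither inside the other, were added to the overlap class. Exons of such pairs need not overlap.

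Named genes were, at a mean of at least 50 CPM, the 8 highest and 8 lowest called genes without exon overlap and the 5 of each with opposite-strand overlap, plus the highest, lowest and most abundant member of each list and all pluripotency genes. A gene that this rule names is not reported here. The members, lists and tests were chosen with earlier results of these data known. P-values measure the spread between the 2 libraries of a kit, with 1 spread per gene shared by both kits. In it, cultures of 1 line and library preparation cannot be told apart. Depth, from 348457 to 2088592 reads on genes, sets the precision of low levels, and floors of 3 reads cover counting error only.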

Additional observations from a re-analysis of the deposited data

Results flagged for a closer look

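For 2 genes the difference between the kits itself differed between Undiff and Day4 by the interaction test of DESeq2. The study had already named these 2, as its only called genes with opposite directions of change among platforms. For Clmp, a cell adhesion molecule, the log2 difference between kits changed by -7.16 ± 1.36 (SE) from Undiff to Day4 (adjusted p = 0.00246). It stood at 2.87 and 1.10 CPM in Direct RNA and 43.2 and 46.4 CPM in cDNA of Undiff cells, and at 95.3 and 54.2 CPM in Direct RNA and 8.34 and 25.03 CPM in cDNA of Day4. The kit with the higher level thus changed with the state, although the Day4 difference alone was not called (adjusted p = 0.13).

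For Plvap, an endothelial membrane protein, the change was -4.24 ± 0.93 (adjusted p = 0.0386). With the replicate number as a block in this test, Plvap was not called (adjusted p = 0.12). In Undiff, Direct RNA gave 31.6 and 19.8 CPM, and cDNA gave 21.1 and 29.2 CPM, which overlap. In Day4, Direct RNA gave 98.8 and 81.3 CPM and cDNA 6.07 and 5.30 CPM, which do not.

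A signal in data outside the gene rows was the counter of ambiguous reads, those that overlapped more than 1 gene. In Undiff it held 2.16% and 2.22% of assigned or ambiguous Direct RNA reads, and 7.79% and 7.65% of such cDNA reads. The 95% Wilson interval of the first Direct RNA library, which covers counting error only, was 2.11% to 2.21%. In Day4, Direct RNA had 2.27% and 2.33%, and cDNA 8.45% and 7.72%. These reads were assigned to no gene.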

How the results depend on the processing

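Against 2784 calls, edgeR gave 4475, a filter of at least 10 reads in every library 1845, thinning to the smallest library 1518 and leaving out 1 library 932 to 1765. Against 1653 calls higher in cDNA, total-read scaling gave 662, the filter 966, thinning 912 and leaving out 1 library 665 (without Direct RNA replicate 1) to 1171. Against 1131 calls lower, edgeR gave 2153, total-read scaling 2439, thinning 606 and leaving out 1 library 201 (without Direct RNA replicate 2) to 594. Each library left out lowered these counts. Of the 9437 tested genes, 2782 were called by DESeq2 and edgeR in the same direction. For the interaction, edgeR gave 14 calls against 2 by DESeq2.

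The labels give both kits replicates 1 and 2, but no source states that a number marks the same culture in both. The deviations of same-numbered libraries correlated with r = 0.179 over 2219 genes averaging 50 reads or more in each kit. With the number as a replicate block, 2380 genes were called, 1478 higher and 902 lower, and 2362 were called with and without it. Among the 96 named genes tested, 1110008F13Rik, Lrrc47, Hspa2, Hist1h2bc and Snhg6 were called only without it and Hist1h2bj only with it. The interaction test with a block gave 2 calls, Clmp and Aplp1, and did not call Plvap (adjusted p = 0.12).

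No named gene that was called changed direction under the alternatives run. Of those not called, Fbln1, Fgf4, Gdf3, Hsp90ab1, Klf5, L1td1, Tbx3, Tfcp2l1, Utf1 and Zfp42 changed sign under at least 1 alternative, for example Zfp42 from 0.37 to -0.45 and Gdf3 from 0.49 to -0.31 with total-read scaling. Calls of named genes were lost by 13 under total-read scaling, 16 after thinning, 21 and 20 without Direct RNA replicates 1 and 2, and 11 and 12 without cDNA replicates 1 and 2.

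The difference in weighted median length (cDNA minus Direct RNA) was -525.5 bases, -43.5 with median transcripts and -343.5 with coding sequences, the last chosen after seeing the data. That in GC was -0.69 points and -0.932 without overlapping genes. Of 40 class medians, taken relative to all tested genes, some changed sign under the alternatives below, and the cause was not tested. With the filter on 10 reads, the class of 2000 to 3000 bases had -0.0236, chaperones -0.25, replication -0.18 and pluripotency genes -1.15e-04. After thinning, chaperones had -0.0411, replication -0.0571 and genes against unlisted pseudogenes 0.29. The last had 0.0397 with edgeR and 0.023 with total-read scaling. Without opposite-strand overlaps the GC class of 50 to 54% had -0.00803. Without any overlap, chosen after seeing the data, it had -0.0775, chaperones -0.0172 and SR proteins and hnRNPs 0.062. Leaving out 1 library gave -0.108 to 0.122 for genes against unlisted pseudogenes, -0.117 to 0.187 for chaperones, -0.058 to 0.297 for replication and -0.038 to 0.489 for pluripotency genes. Other class medians moved by over 1.5 times without changing sign. With the filter, that of 1000 to 2000 bases moved from 0.81 to 0.51, GC of 42 to 46% from 0.25 to 0.090, single-exon genes from 0.58 to 0.39, long non-coding RNAs from 1.38 to 0.79, the proteasome from 1.23 to 0.78, glycolysis from 0.45 to 0.20 and zinc fingers from -0.32 to -0.043. With all 8 libraries, single-exon genes had 0.36. Zinc fingers had -0.21 and -0.17 without Direct RNA replicates 1 and 2, glycolysis 0.27 without Direct RNA replicate 1, translation factors 0.59 (against 0.35) and small RNAs 1.15 (against 2.07) without cDNA replicate 1, genes with same-strand overlap only 0.16 (against 0.33) without either Direct RNA replicate 1 or cDNA replicate 2, and genes without overlap 0.086 (against 0.14) without Direct RNA replicate 2. Depth limits low genes, since 3 reads are 8.61 CPM in the shallowest library.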
